A study of Mus musculus with 6 samples.

Results

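The genes described here encode secreted Wnt ligands, their Frizzled receptors, the co-receptors Lrp5 and Lrp6, and the secreted inhibitors of the Sfrp and Dkk families with Sost and Wif1. They were picked by gene symbol, from array features whose annotation lists a single gene symbol. The choice was made with earlier results of these data known. This gave 41 genes, each with 1 feature, of 65956 features with a value. They comprise 19 Wnt ligands, 10 Frizzled receptors, 2 Lrp co-receptors, 4 Sfrp genes, 4 Dkk genes, and Sost and Wif1.

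The tissue was soleus, a slow-twitch muscle of the calf, from male mice aged 39 to 41 weeks. The Control group held 3 mice labelled wild type, and the cKO group held 3 mice labelled as a knockout of Mbtps1 by Dmp1-Cre. The series title calls the controls littermates, and the labels do not say whether they carried a floxed Mbtps1 allele or the Cre. The product of Mbtps1 is site-1 protease, a Golgi enzyme that cuts membrane-bound precursors. Dmp1 is a gene of osteocytes, the cells embedded in bone. Whether the Cre also acted in muscle fibres was not tested. Each mouse gave 1 array and a log2 signal per feature. All 14 muscle fibre markers were tested, with list means of 17.11 to 17.65 on the 6 arrays. The mouse numbers fall into a low range, with 715 and 716 for Control 1 and 2 and 733 for cKO 1, and a high range, with 776 for Control 3 and 779 and 780 for cKO 2 and 3. What the ranges stand for is not given in the labels. Where values are given per mouse, they follow in the order of replicates 1, 2 and 3 of each group.

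In the canonical Wnt pathway, a secreted Wnt binds a Frizzled receptor together with Lrp5 or Lrp6, which spares beta-catenin from destruction and lets it act with TCF/LEF factors on target genes. Other branches signal through planar polarity proteins or calcium. Sfrp proteins and Wif1 bind Wnts outside the cell, whereas Dkk1 and sclerostin, the product of Sost, bind Lrp5 and Lrp6. In bone, sclerostin from osteocytes restrains bone formation, and in skeletal muscle Wnt signals act on satellite cells and at the neuromuscular junction. The comparison of cKO with Control asks whether these genes differ in muscle after loss of Mbtps1 from cells in which Dmp1-Cre is active.

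Of the 41 genes, 0 passed an adjusted p of 0.05 between cKO and Control in limma, where 0% of all 33334 features tested passed. The receptor gene Fzd7 was the single one with an unadjusted p under 0.05, out of 24 genes tested, against 4.5% of all features tested. That count lies near the background and is not a result about these genes as a group. On the arrays as deposited, cKO lay wholly above Control for Fzd7 and Fzd1 and wholly below it for Dkk3. Over all features tested, the groups did not overlap for 11%, with cKO above for 8.95% and below for 2.05%. The counts without overlap, 2 above and 1 below of 24, thus also lie near the background. The median difference over the 24 genes, cKO minus Control, was 0.05 log2 units, against 0.07 over all features tested. Of the 24, 14 had the higher mean in cKO, against 65.8% of all features, and 12 did so after quantile normalization, against 49.1%.

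The promoters of Fzd7 and Fzd1 are shown because, as deposited, all cKO arrays lay above the Control arrays for these receptors. That is 2 of 24 tested genes, beside 8.95% of all features, and the count was 0 after quantile normalization. This choice is thus no result about the 2 genes. The promoters are RefSeq sequences on GRCm38.p6, from 250 bases before the gene start to 50 after it, written along the strand of the gene. The Fzd7 promoter lies at chr1:59481897-59482196 on the plus strand and the Fzd1 promoter at chr5:4758167-4758466 on the minus strand. Capitals mark an E-box, the CANNTG motif of factors such as the myogenic regulators.
Fzd7: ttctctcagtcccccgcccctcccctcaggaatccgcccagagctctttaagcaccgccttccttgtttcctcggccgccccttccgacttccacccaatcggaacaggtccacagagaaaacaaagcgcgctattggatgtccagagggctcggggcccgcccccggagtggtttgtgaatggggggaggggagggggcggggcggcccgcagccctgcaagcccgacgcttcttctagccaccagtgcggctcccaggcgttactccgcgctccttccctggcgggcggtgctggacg
Fzd1: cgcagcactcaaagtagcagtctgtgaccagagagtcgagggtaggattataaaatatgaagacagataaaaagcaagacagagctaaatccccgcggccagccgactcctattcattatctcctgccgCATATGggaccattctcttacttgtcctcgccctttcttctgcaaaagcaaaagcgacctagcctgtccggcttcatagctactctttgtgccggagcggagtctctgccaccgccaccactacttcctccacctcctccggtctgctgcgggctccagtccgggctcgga
The E-box was searched on both strands, as was CTTTGAT, a TCF/LEF motif. The Fzd7 window held neither, and the Fzd1 window held 1 E-box, CATATG, whose first base is at -121 from the start. Of 32851 mouse promoters of this length, 3.73% held the TCF/LEF motif and 72.3% an E-box. Among the Wnt genes and their partners, 27 had 30 promoters in the table, of which 2 held the TCF/LEF motif (a promoter of Wnt11 and one of Wnt5b) and 21 an E-box. These matches describe letters in a window and not binding.

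A gene was tested when its signal lay above the median of its own array on at least 3 arrays, with array medians of 4.004 to 4.37. Signals of different features are not comparable as amounts of RNA, so the filter says nothing of which gene has more RNA. By this filter 24 of 41 genes were tested (58.5%, against 50.5% of all 65956 features) and 17 were not, and all 17 lay below the median on every array. Those 17 were 12 of the 19 Wnt ligands together with Fzd3, Sfrp2, Dkk1, Dkk4 and Sost. Among receptors and co-receptors 9 of 10 Frizzled genes and both Lrp genes were tested. Because a gene can pass through the group in which it is higher, the tested genes do not stand for all 41. Wnt16 passed on the Control arrays alone.

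**Figure D1:**
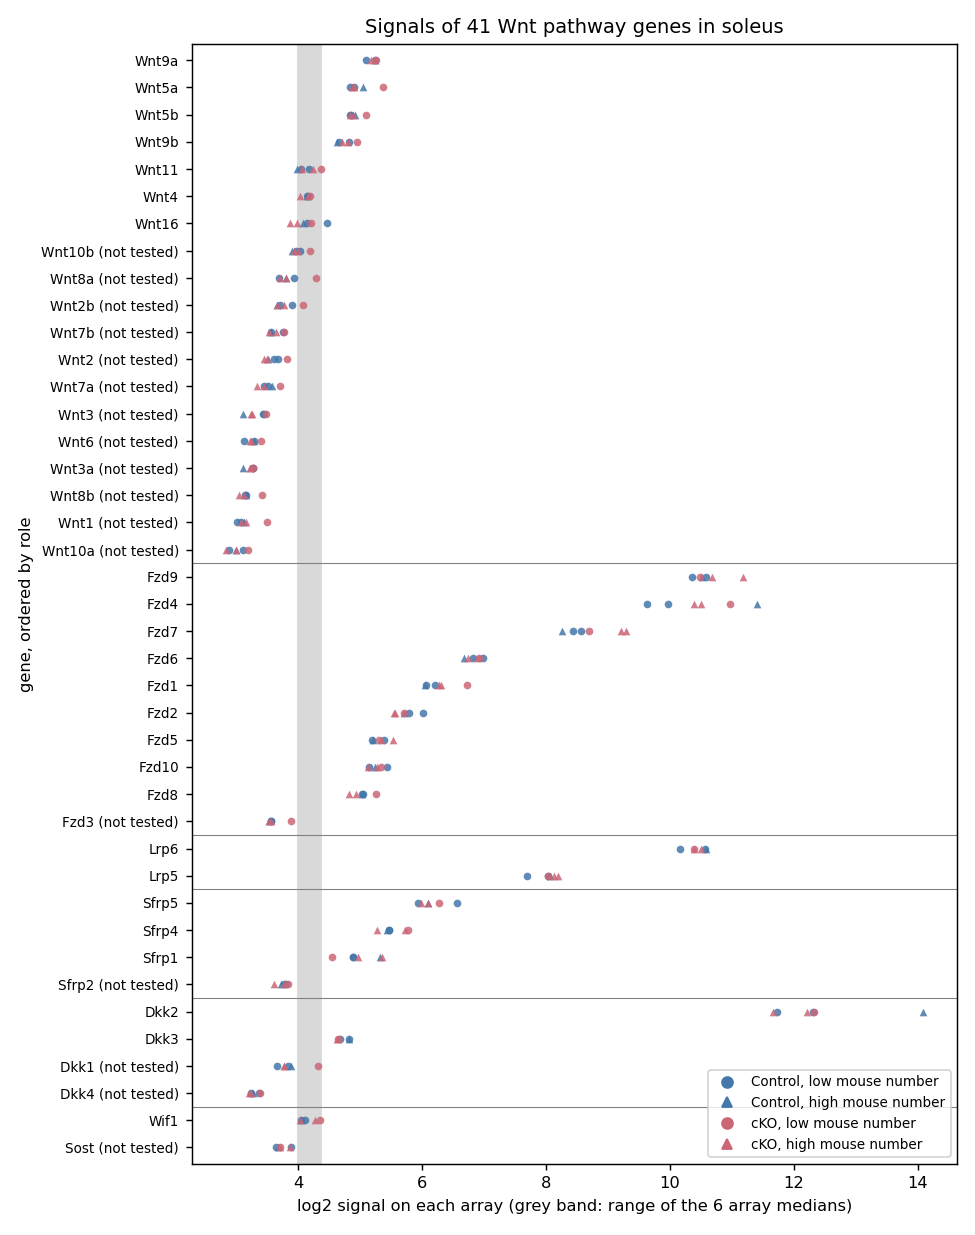
Log2 signal of each of the 41 genes on each of 6 arrays, with genes in rows ordered by role and then by mean signal, colour for the group and marker for the range of mouse numbers. The grey band spans the 6 array medians, 4.004 to 4.37, and 12 of 19 Wnt ligands and Sost are marked as not tested, while Dkk2 has 1 point near 14, Control 3.

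Of the 19 Wnt ligands, 7 passed the filter. The 12 ligands not tested (Wnt1, Wnt2, Wnt2b, Wnt3, Wnt3a, Wnt6, Wnt7a, Wnt7b, Wnt8a, Wnt8b, Wnt10a and Wnt10b) had signals from 2.85 to 4.30. This set includes Wnt7a, which acts through Fzd7 on satellite cells in regenerating mouse muscle, with signals of 3.52, 3.45 and 3.57 over the Control mice and 3.71, 3.46 and 3.34 over the cKO mice. Wnt7a overlapped between the groups, and its difference was not tested in the main comparison.

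The 7 tested ligands were Wnt9a, Wnt5a, Wnt5b, Wnt9b, Wnt11, Wnt4 and Wnt16, and 0 of them had an unadjusted p under 0.05 in limma. Wnt9a gave 5.24, 5.10 and 5.24 over the Control mice and 5.26, 5.24 and 5.17 over the cKO mice. The groups overlapped, with a difference of 0.03 log2 units (SE 0.12, 95% interval -0.25 to 0.31). Wnt5a, a ligand of the beta-catenin-independent branches, gave 4.83, 4.90 and 5.05 over the Control mice and 5.38, 4.90 and 4.87 over the cKO mice. Its difference of 0.12 (SE 0.17, 95% interval -0.29 to 0.53) came with the highest value on cKO 1 and the other arrays between 4.83 and 5.05. Without cKO 1 the Wnt5a difference was -0.04. The other 5 ligands differed by -0.21 (Wnt16) to 0.16 (Wnt11). Wnt11, which guides cell movement and muscle fibre alignment in chick embryos, differed by 0.16 (SE 0.13), with its highest signal of 4.36 on cKO 1, and by 0.09 without that array. Wnt4 differed by -0.02 (SE 0.11). The sign of Wnt4 turned within the low mouse numbers, where it was 0.04 against -0.05 within the high numbers.

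The array cKO 1 had the highest signal for 15 of the 17 genes not tested and for 10 of the 24 tested. Its median of 4.37 was the highest of the arrays, against 4.004 to 4.13 for the others, and it was highest for 65.3% of all 32622 features that were not tested. After quantile normalization it was highest for 3 of the 17 and for 2 of the 24. For Wnt1, for example, cKO 1 stood at 3.50 and the other arrays at 3.02 to 3.15.

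All Frizzled receptors but Fzd3 passed the filter, and Fzd7 had the largest difference among the 9 tested. Fzd7 is the receptor of Wnt7a on satellite cells in mouse. Its signal was 8.44, 8.57 and 8.26 over the Control mice and 8.70, 9.22 and 9.30 over the cKO mice. Every cKO array lay above every Control array, with cKO 1 the closest to Control. The group means were 8.42 ± 0.15 and 9.07 ± 0.32 (SD, n = 3), a difference of 0.655 log2 units (SE 0.22, 95% interval 0.13 to 1.18), or 1.57-fold in cKO over Control. Limma gave an unadjusted p of 0.0215 and an adjusted p of 0.999, so Fzd7 did not pass. Split by mouse number, it was 0.20 among low-numbered and 1.003 among high-numbered mice. It was 0.56 after quantile normalization, where the unadjusted p was 0.0894 and the groups overlapped.

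Markers of other cells were read on the same arrays from 10 lists, and the list means of 3, for tendon, adipocytes, and smooth muscle with pericytes, lay wholly higher in cKO as deposited. The marker lists were drawn up with earlier results of these data known, so their separation is no independent evidence. Of 13 tendon markers tested, 12 had the higher mean in cKO, beside 65.8% of all features. Their list means were 6.16 to 6.83 on the Control arrays and 7.27 to 7.72 on the cKO arrays. Angptl7, Chad and Fmod had the largest tendon differences, at 2.20, 1.97 and 1.68. Scx differed by 0.07 with overlapping groups, Col14a1 by -0.08, and Mkx was not tested. Of 9 adipocyte markers 6 were higher (66.7%), near the share of all features. Their list means were 7.28 to 7.30 on Control and 7.48 to 7.77 on cKO arrays. Pnpla2 had the largest adipocyte difference, 1.01, while Fabp4, Pparg and Retn were lower in cKO, at -0.06, -0.02 and -0.14. Of 10 smooth muscle and pericyte markers 8 were higher (80%, beside 65.8% of all features). Their list means were 9.08 to 9.31 on Control and 9.38 to 9.66 on cKO arrays. These means overlapped after quantile normalization and after median centring. Mustn1 had the largest difference of that list, 0.95, while Rgs5 and Kcnj8 were lower in cKO, at -0.56 and -0.27. The single tendon, adipocyte and pericyte markers were named after their values were seen. Satellite cell markers overlapped between the groups, with list means of 6.27 to 6.41 on Control and 6.38 to 6.55 on cKO arrays. Of these 12 markers 8 were higher in cKO (66.7%), near the share of all features. The satellite cell transcription factor Pax7, also named after its values were seen, gave 4.77, 4.77 and 4.89 over the Control mice and 4.95, 4.85 and 4.92 over the cKO mice. The part of these cells in the Fzd7 difference was not tested, and in whole muscle more cells of a type and more RNA per cell cannot be told apart.

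Fzd1, a receptor that couples to beta-catenin signalling, gave 6.20, 6.07 and 6.04 over the Control mice and 6.72, 6.27 and 6.31 over the cKO mice. The groups did not overlap as deposited, but the lowest cKO mouse lay just 0.07 above the highest Control mouse, and cKO 1 stood 0.41 above the next array. The difference of 0.33 log2 units (SE 0.17, limma unadjusted p = 0.0919, adjusted p = 0.999) was 0.59 among low-numbered and 0.25 among high-numbered mice. Without cKO 1 it was 0.19. With the mouse number range as a block the Fzd1 difference was 0.42 (limma unadjusted p = 0.0336, adjusted p = 0.765), so its unadjusted p was then under 0.05.

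Fzd9, which is found at the neuromuscular junction in mouse, gave 10.35, 10.59 and 10.51 over the Control mice and 10.49, 10.68 and 11.19 over the cKO mice. The groups overlapped, and cKO 3 was the highest array. The difference was 0.30 (SE 0.24, 95% interval -0.27 to 0.86), and 0.10 without cKO 3.

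Fzd4, a receptor of endothelial cells that also binds norrin, varied more among Control arrays than between groups. It gave 9.62, 9.97 and 11.41 over the Control mice and 10.96, 10.40 and 10.51 over the cKO mice. Control 3 was the highest array of all and the other Control arrays were the lowest. The difference of 0.29 (SE 0.47) was 1.17 among low-numbered and -0.96 among high-numbered mice, and without Control 3 it was 0.83 (limma unadjusted p = 0.0195, adjusted p = 0.392). The 12 endothelial markers had list means of 8.95, 8.55 and 8.03 over the Control mice and 8.42, 8.26 and 8.44 over the cKO mice, with the lowest value on Control 3. Fzd4 and these markers ran in opposite order over the Control arrays, and among the cKO arrays both were lowest on cKO 2. The part of endothelial cells in the Fzd4 values was not tested.

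The other 5 tested receptors differed by -0.23 (Fzd2) to 0.13 (Fzd5). Fzd2 gave 5.79, 6.02 and 5.70 over the Control mice and 5.71, 5.54 and 5.57 over the cKO mice, with cKO 1 just above Control 3. Its difference was -0.23 (SE 0.14, 95% interval -0.57 to 0.10), and after quantile normalization, where it was -0.33, its groups no longer overlapped. Fzd6, Fzd10 and Fzd8 differed by 0.02, -0.03 and -0.03, and each of their signs turned under at least 1 other processing.

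**Figure D2:**
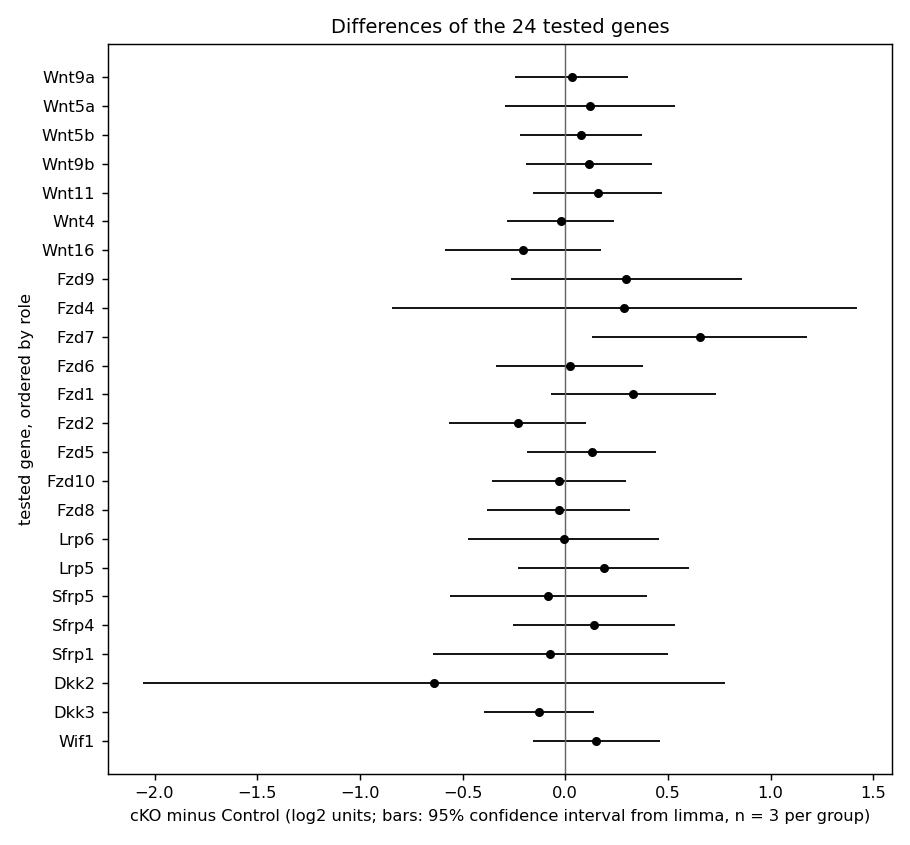
Difference between group means, cKO minus Control, in log2 units for the 24 tested genes ordered by role, with the 95% confidence interval from limma (n = 3 per group). The interval of Fzd7, 0.13 to 1.18, is the single one that leaves out 0, before adjustment for the number of features tested, and Dkk2 has the widest.

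The co-receptors Lrp5 and Lrp6 lay above the median on all arrays. Lrp6 gave 10.17, 10.56 and 10.58 over the Control mice and 10.40, 10.39 and 10.51 over the cKO mice. The cKO values lay inside the Control range, with a difference of -0.01 log2 units (SE 0.19, 95% interval -0.47 to 0.46). Lrp5, in which changes of function alter bone mass, gave 8.04, 7.69 and 8.07 over the Control mice and 8.03, 8.14 and 8.19 over the cKO mice. Control 2 was the low array, and its difference was 0.19 (SE 0.17, 95% interval -0.23 to 0.60). The intervals leave room for changes of up to about these bounds in either gene.

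Sost, the osteocyte product that binds both co-receptors, stayed below the array median on all arrays. It gave 3.65, 3.89 and 3.68 over the Control mice and 3.71, 3.71 and 3.87 over the cKO mice, and it was not tested. Dmp1, whose regulatory sequence drove the Cre, was also below the median, at 3.94, 3.99 and 3.89 over the Control mice and 4.31, 3.76 and 3.82 over the cKO mice. Of 11 osteoblast and osteocyte markers with a feature, 4 were tested (Alpl, Bglap, Col1a1 and Pdpn), and Mepe, Phex and Fgf23 were below the filter with Sost and Dmp1. Mbtps1 itself was 7.39, 7.05 and 7.24 over the Control mice and 7.77, 7.44 and 7.11 over the cKO mice. The part of Mbtps1 that its feature covers is not given in the sources used here, so this level does not check the labels. Wif1, a secreted protein that binds Wnts, gave 4.06, 4.12 and 4.05 over the Control mice and 4.36, 4.28 and 4.03 over the cKO mice, a difference of 0.15 (SE 0.13) with overlapping groups.

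Of the Sfrp family, Sfrp5, Sfrp4 and Sfrp1 were tested and Sfrp2 was not. Sfrp5 gave 5.94, 6.57 and 6.10 over the Control mice and 6.28, 5.98 and 6.09 over the cKO mice, a difference of -0.08 (SE 0.20). Sfrp4 gave 5.47, 5.46 and 5.44 over the Control mice and 5.78, 5.28 and 5.73 over the cKO mice, a difference of 0.14 (SE 0.17). The Control arrays of Sfrp4 lay within 0.03 of each other and the cKO arrays lay on both sides of them. Sfrp2, at 3.61 to 3.84, was below the filter.

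Sfrp1 separated by the mouse number range and overlapped between genotypes, and it is named after its values were seen. It gave 4.89, 4.88 and 4.54 on the low-numbered arrays (Control 1, Control 2 and cKO 1) and 5.32, 4.97 and 5.36 on the high-numbered arrays (Control 3, cKO 2 and cKO 3). The high numbers exceeded the low by 0.53 log2 units in a model with genotype and range (limma unadjusted p = 0.0147, adjusted p = 0.289). It was the single one of the 24 genes with an unadjusted p under 0.05 for the range, against 13.5% of all features tested. Its genotype difference was -0.07 (SE 0.24).

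Frzb, which encodes the remaining secreted frizzled-related protein (also called sFRP3), carries a symbol outside the family pattern and belonged to the pathway lists. It gave 6.34, 7.03 and 6.21 over the Control mice and 5.90, 5.59 and 5.42 over the cKO mice. Every cKO array lay below every Control array. The means were 6.52 ± 0.44 and 5.63 ± 0.24 (SD, n = 3), a difference of -0.89 log2 units (SE 0.25, limma unadjusted p = 0.0109, adjusted p = 0.999). Split by mouse number, it was -0.79 among low-numbered and -0.70 among high-numbered mice, and -0.97 after quantile normalization.

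Dkk2 and Dkk3 were the Dkk genes tested. Dkk2, which binds Lrp6 and can inhibit or activate the pathway depending on the setting, gave 12.31, 11.73 and 14.08 over the Control mice and 12.33, 12.22 and 11.67 over the cKO mice. Control 3 stood 1.75 above every other array, and the other 5 lay between 11.67 and 12.33. The difference of -0.64 (SE 0.59, 95% interval -2.05 to 0.78, limma adjusted p = 0.999) rested on that array and was 0.05 without it. It was 0.30 among low-numbered and -2.14 among high-numbered mice. Control 3 was thus the highest array for both Dkk2 and Fzd4. Tendon marker means were 6.16, 6.24 and 6.83 over the Control mice and 7.27, 7.35 and 7.72 over the cKO mice. Among Control arrays the tendon mean and Dkk2 were both highest on Control 3. On cKO 3 the tendon mean was highest and Dkk2 lowest of all arrays. The part of tendon cells in the Dkk2 values was not tested.

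Dkk3, a divergent member of the family, gave 4.68, 4.83 and 4.82 over the Control mice and 4.65, 4.65 and 4.64 over the cKO mice. All cKO arrays lay below Control, by 0.02 at the nearest pair, with a difference of -0.13 (SE 0.11, limma unadjusted p = 0.291). This separation was lost after quantile normalization and after centring on array medians. Dkk1, which blocks Lrp6, and Dkk4 were below the filter, at 3.21 to 4.33.

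**Figure D3:**
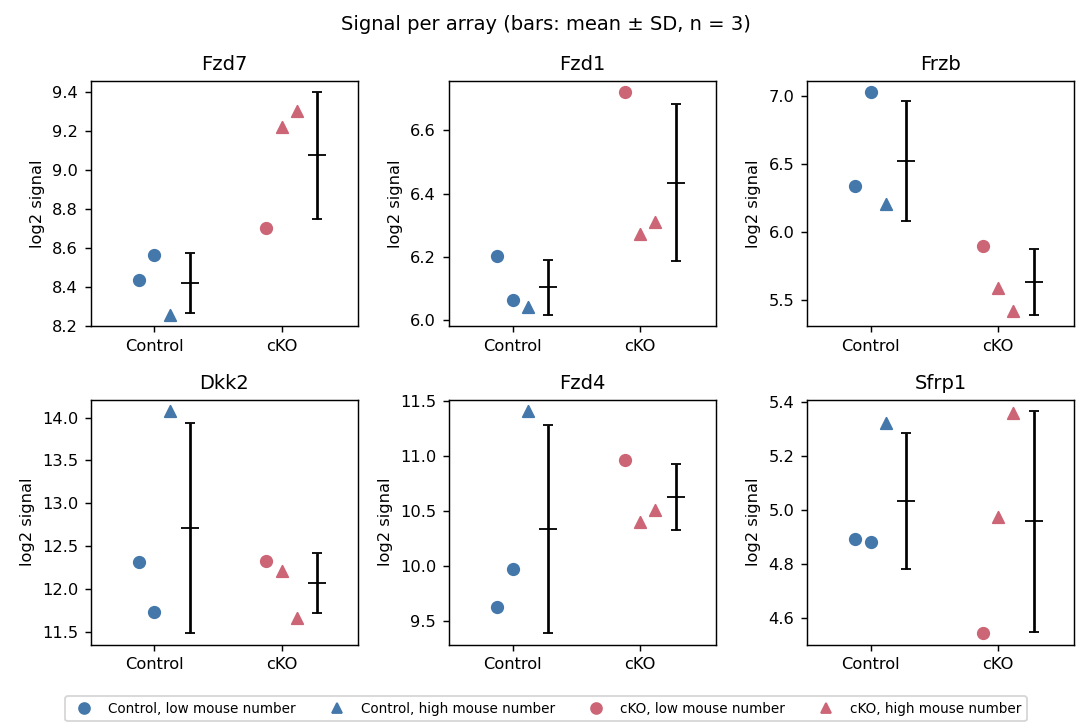
Log2 signal per array (vertical axes, each with its own range) for Fzd7, Fzd1, Frzb, Dkk2, Fzd4 and Sfrp1 by group, with bars for mean ± SD (n = 3) and triangles for the high mouse numbers. Fzd7 and Fzd1 have no overlap with cKO above, Frzb has none with cKO below, and Control 3 sets the spread of Dkk2 and Fzd4.

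Across the mouse number ranges, 10 of the 24 tested genes were higher in cKO within both, 4 were lower within both, and 10 differed in sign. The same counts were not taken over all features, of which 65.8% had the higher mean in cKO. They are thus no result about these genes. Each range compares a single mouse of one group with 2 mice of the other. After quantile normalization 0 of the 24 lay wholly above Control and 2 (Fzd2 and Wnt16) wholly below, against 4.99% and 4.97% of all features. After median centring the groups did not overlap for Fzd1 above and for Fzd2 and Wnt16 below, against 5.15% and 4.03% of all features. Which of the genes separated the groups therefore depended on the scaling. Wnt16 passed the filter on the Control arrays alone, as every cKO signal lay below its array median. Its place below Control is thus tied to the filter and is no result about Wnt16.

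Other genes of the pathway were described from 5 lists holding 116 symbols, older names included, of which 105 had a feature with a single symbol and 91 were tested. By limma none reached an adjusted p of 0.05 (0 of 91), while 12 were at an unadjusted p under 0.05, 10 higher and 2 lower in cKO. That is 13.2%, beside 4.5% of all features, with 3.7% higher and 0.807% lower. The lists were drawn up with earlier results of these data known, and Musk, Jun and Myc were among those results, so the share is no independent evidence. The count was 7 after quantile normalization (beside 4.54% of all features), 7 after median centring (3.98%) and 7 without Control 2 (4.22%). It was 6 without Control 1 (beside 3.07%), cKO 2 (3.12%) or cKO 3 (2.89%). With the mouse number range as a block the count was 9, beside 6.01% of all features. Csnk1d (limma unadjusted p = 0.0701), Gpc3 (0.0556) and Prickle3 (0.0747) were then the genes no longer under 0.05. The median difference over the 91 genes was 0.10 log2 units. As deposited 75 of the 91 had the higher mean in cKO (65.8% of all features), against 61 after median centring (53.4%) and 53 after quantile normalization (49.1%).

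Among genes of Wnt secretion and other modulators, 20 were tested. As deposited 15 were higher in cKO (75%, beside 65.8% of all features), and 10 after quantile normalization (50%, beside 49.1%). The limma unadjusted p was under 0.05 for 3 (15%, beside 4.5% of all features). These were Frzb, Gpc3 and Musk. Gpc3, a heparan sulfate proteoglycan of the cell surface that binds Wnts, gave 6.03, 6.52 and 5.83 over the Control mice and 5.48, 5.58 and 5.66 over the cKO mice. All cKO arrays lay below Control, with a difference of -0.56 (SE 0.20). Musk, the receptor kinase of the muscle synapse, has a frizzled-like extracellular domain that binds Wnts, and differed by 1.39 (SE 0.34). Its partner Lrp4, named after its values were seen, differed by 0.05 (SE 0.14).

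Of the destruction complex and its transducers, 20 genes were tested. As deposited 16 had the higher mean in cKO (80%, beside 65.8% of all features), against 11 after quantile normalization (55%, beside 49.1%). The casein kinase genes Csnk1d and Csnk1e, whose products phosphorylate Dishevelled and also clock proteins, differed by 0.49 (SE 0.19) and 0.37 (SE 0.14). Fbxw11, an adaptor through which a ubiquitin ligase recognises phosphorylated beta-catenin, gave 8.42, 8.38 and 8.45 over the Control mice and 9.10, 8.80 and 8.77 over the cKO mice. Its Control arrays spanned 0.07 and lay below all cKO arrays, with a difference of 0.47 (SE 0.17). Each of the 3 had an unadjusted p under 0.05 in limma and an adjusted p of 0.999. That is 15% of the 20, beside 4.5% of all features tested.

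Nuclear factors and feedback targets gave the following values. Of 15 nuclear factors tested, 12 were higher in cKO (80%, beside 65.8% of all features), and 10 after quantile normalization (66.7%, beside 49.1%). The Groucho co-repressor gene Tle4 was the 1 with a limma unadjusted p under 0.05 (6.67%, beside 4.5% of all features). Tle4 gave 8.44, 8.61 and 8.38 over the Control mice and 8.88, 8.94 and 9.11 over the cKO mice, without overlap, a difference of 0.50 (SE 0.17). Pygo1, a co-activator of beta-catenin, had the next smallest p and differed by -0.40 (SE 0.21).

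Of 14 feedback targets tested, 13 were higher in cKO (92.9%, beside 65.8% of all features), and 9 after quantile normalization (64.3%, beside 49.1%). The limma unadjusted p was under 0.05 for 4 (28.6%, beside 4.5% of all features), in a list drawn up with results for Jun and Myc known. The 4 were Jun, Myc, Fst and Cd44, at 1.26 (SE 0.25), 0.79 (SE 0.19), 1.06 (SE 0.27) and 0.59 (SE 0.21). These genes respond to many signals besides Wnt, and the part of Wnt signals in their differences was not tested. Values of targets often used as readouts of beta-catenin follow. Axin2 gave 6.03, 6.08 and 6.33 over the Control mice and 6.47, 6.32 and 6.47 over the cKO mice, with groups that just overlapped and a difference of 0.28 (SE 0.14, limma unadjusted p = 0.101). The feedback inhibitors Nkd1, Notum and Znrf3 differed by 0.04 (SE 0.13), 0.01 (SE 0.12) and 0.20 (SE 0.18), and Sp5, Lgr5 and Lef1 were below the filter. These 7 were named after their values were seen.

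In the planar polarity and calcium branch 24 genes were tested. As deposited 21 were higher in cKO (87.5%, beside 65.8% of all features), and 14 after quantile normalization (58.3%, beside 49.1%). The limma unadjusted p was under 0.05 for 1 gene (4.17%), near the 4.5% of all features. That was Prickle3, a planar polarity gene, at 0.36 (SE 0.14), with 5.76, 5.65 and 5.63 over the Control mice and 5.85, 6.07 and 6.21 over the cKO mice and no overlap. Camk2a, a calcium-dependent kinase gene, followed at 0.39 (SE 0.20).

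**Figure D4:**
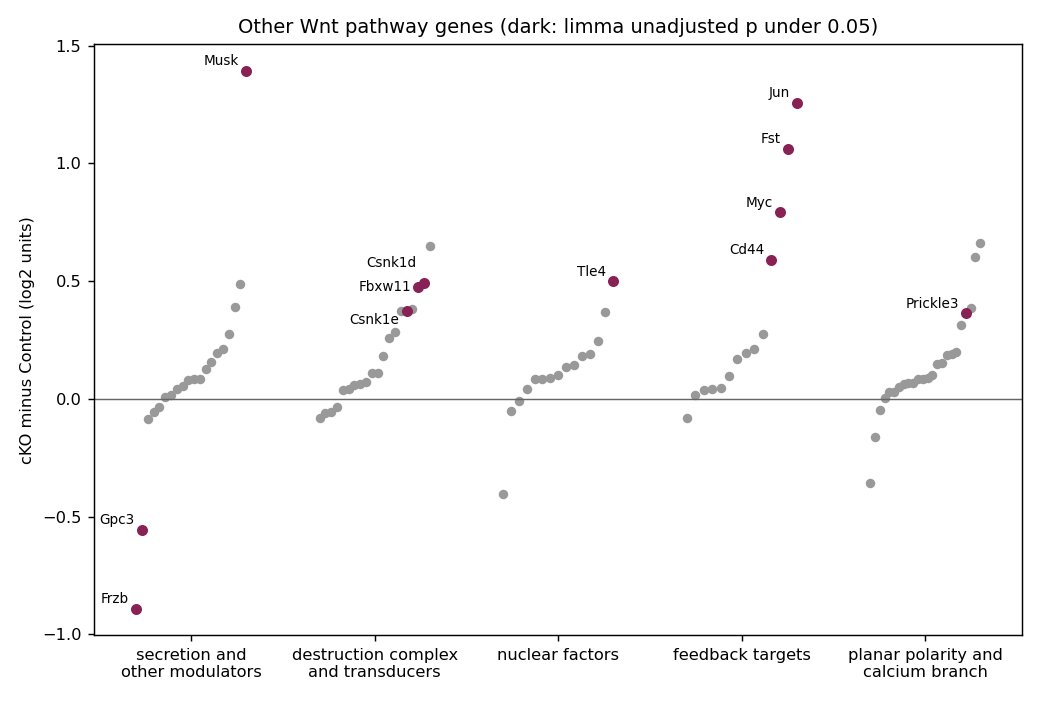
Difference between group means, cKO minus Control, in log2 units for the tested genes of 5 pathway lists (horizontal axis, genes sorted within each list), with genes at a limma unadjusted p under 0.05 in dark and named. Most points lie above 0 on the deposited scale, 75 of 91 (65.8% of all features), against 53 after quantile normalization (49.1%). Frzb and Gpc3 are the named genes below 0.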

How the data were processed

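Total RNA (100 ng per mouse, both soleus muscles, column purified) was labelled with an Affymetrix whole-transcript kit, per the labels' protocols. The deposited table holds the authors' processed values, read here as log2 signals from their range. Background correction, normalization, software and build are not given in the sources used here. Of 72688 features, 6732 without values were left out. Symbols came from the platform annotation, and a symbol repeated within an entry was counted once. All 41 symbols matched the RefSeq gene table (GRCm38.p6).

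A feature was tested when its signal exceeded the array median on 3 or more arrays. The fit used limma 3.58.1 under R 4.3.3 (lmFit and eBayes with an intensity trend, two-sided, no block). P-values were adjusted by Benjamini-Hochberg over 33334 features. Named genes were those with an unadjusted p under 0.05, a fold of at least 1.5 or no overlap, the 2 highest signals per role, Sost, Lrp5 and Lrp6, and from each pathway list those with an unadjusted p under 0.05 or the 2 smallest. Members and lists were chosen with earlier results of these data known. The script was tested on simulated data. The number of arrays, 6, limits the precision. Plots used matplotlib 3.10.9 and pandas 2.3.3 under Python 3.11.15.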

Additional observations from a re-analysis of the deposited data

How the results depend on the processing

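Among the Wnt genes and their partners, 0 passed an adjusted p of 0.05 under each of the 17 alternatives run, and the pathway lists also had 0. Over all features the count was 0 except when a mouse was left out, where it ranged from 0 to 14, with 14 without Control 3. The count of Wnt genes at a limma unadjusted p under 0.05 was 1 as reported, beside 4.5% of all features. It was 0 after quantile normalization (beside 4.54%) and 0 after median centring (beside 3.98%). It was 3 with array weights (beside 12.8%) and 2 (Fzd7 and Fzd1) with the mouse number range as a block (beside 6.01%). It ranged from 0 to 1 when each array was left out, beside 2.89% to 9.43% of all features. It was 0 without Control 1, cKO 2 or cKO 3. Without Control 3 the single gene was Fzd4 and not Fzd7. The count of pathway genes was 12, beside 4.5% of all features. It was 7 after quantile normalization (beside 4.54%), 7 after median centring (beside 3.98%) and 20 with array weights (beside 12.8%). It was 6, beside 6.59% of all features, when quantile normalization was combined with the range block. That alternative was added after the values were seen. It ranged from 6 to 14 with each array left out, and was 7 without Control 2. The median difference of the Wnt genes, 0.05, was -0.0242 after quantile normalization and -0.0302 with that block added, where the median of all features was -0.0038 and 0.0005. It ranged from 0.01 to 0.09 with each array left out. Dkk2, -0.64 as reported, ranged from -1.13 to 0.0475 with each array left out, with the opposite sign without Control 3. Fzd7 stayed between 0.52 and 0.84 and Frzb between -1.05 and -0.64 over 17 alternatives each. Replicate numbers in the titles pair no mice by label. The correlations of same-numbered deviations (0.13, -0.20 and 0.21) are too few to decide whether mice were paired. With the replicate block the count of Wnt genes was 1 and that of pathway genes 8, beside 3.97% of all features. For genes under the 75th percentile the stricter filter gave no value.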
